A study of Mus musculus with 6 samples.

Results

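The genes described here are 10 pattern recognition receptors and nucleic acid sensors, taken by gene name from a table of 54532 genes: Cd14, Tlr4, Tlr2, Tlr3, Nod1, Nod2, Ripk2, Ddx58, Ifih1 and Zbp1. All 10 were found, and all 10 passed the filter on low values (0.5 FPKM, fragments per kilobase of gene scaled to depth, reached in 3 or more of the 6 libraries). The cells sequenced were primary endothelial cells of mouse brain microvessels, which line the capillaries of the blood-brain barrier. One group of 3 libraries came from cells given the processed cytokine DEVD mIL-36β at 100 ng/ml for 24 h, and the other group of 3 came from cells left untreated. Both groups were wild-type cells from C57BL/6J mice, grown out of digested brain vessel fragments on collagen IV and fibronectin, with puromycin in the first medium. The labels give no age, no vehicle and no stated time for the untreated cells. Library names are A0, B0 and D0 for untreated and A24, D24 and E24 for IL-36β libraries, and the labels do not explain these endings. Any difference in time in culture and IL-36β thus cannot be told apart. The labels do not say whether libraries of a group came from separate cultures or animals, so p-values measure only the spread between these libraries.

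Pattern recognition receptors detect molecules of microbes or of damaged cells. Toll-like receptors do so at the cell surface and in endosomes, NOD proteins and RNA helicases do so in the cytosol, and most of them feed into NF-κB or interferon signalling. In brain endothelium some of them are known to detect blood-borne bacterial products at the vessel wall. IL-36 signals through an IL-1 family receptor that shares the adaptor MyD88 with most Toll-like receptors.

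Libraries held 15180389 to 19544689 reads assigned to genes. The 8 endothelial markers (Pecam1, Cdh5, Cldn5 and others) summed to 1811 to 2466 FPKM in IL-36β libraries and 1792 to 2164 FPKM in untreated libraries. Of 14 microglia and macrophage markers, 6 had no read in any library (Tyrobp, C1qa, C1qb, C1qc, Trem2 and Adgre1). The 14 summed to 0.199 to 0.818 FPKM with IL-36β and 0.834 to 1.07 FPKM in untreated cells. The 4 neutrophil markers summed to 0.0876 to 1.11 FPKM with IL-36β and at most 0.266 FPKM in untreated cells, with S100a9 at 0. Of the 8 endothelial markers, 2 had an unadjusted limma p under 0.05, both higher, against 5.96% of all genes. Cldn5 was at 1.65-fold (limma adjusted p = 0.378) and Tek at 1.43-fold (limma adjusted p = 0.362). DESeq2 called Cldn5 higher (adjusted p = 0.0222), as it did 1.29% of all genes, and did not call Tek (adjusted p = 0.105). Folds of the remaining endothelial markers were 0.80 (Kdr), 0.91 (Ly6c1), 1.02 (Cdh5), 1.11 (Pecam1), 1.15 (Tie1) and 1.17 (Erg). Neither limma nor DESeq2 called any of these. The 8 mural cell markers summed to 349 to 782 FPKM with IL-36β and 390 to 1335 FPKM in untreated cells, most of it the actin gene Acta2. Among them the smooth muscle myosin gene Myh11 was lower with IL-36β without overlap, as were 7.24% of all genes. Its levels were 4.6, 3.90 and 2.05 FPKM with IL-36β and 6.54, 11.6 and 6.02 FPKM in untreated cells. Its fold was 0.47 (limma adjusted p = 0.315), and DESeq2 called it lower (adjusted p = 0.00447), as it did 0.808% of all genes. Folds of the other tested mural markers were 0.73 (Acta2), 0.88 (Cspg4), 0.95 (Pdgfrb) and 1.21 (Des), and neither limma nor DESeq2 called any. Mean levels with IL-36β and in untreated cells were 2.54 and 2.63 FPKM (Pdgfrb), 1.18 and 1.38 (Cspg4) and 1.94 and 1.51 (Des). Rgs5 (0.188 and 0.285 FPKM), Kcnj8 (0.145 and 0.100) and Abcc9 (0.00475 and 0.0519) were too low to be tested. The part of mural cells in the results below was not tested. In bulk RNA, fewer cells of a type and less RNA per cell cannot be told apart.

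Of the 10 genes, 1 passed the threshold over all genes tested, and it was higher with IL-36β: Cd14 (limma, Benjamini-Hochberg adjusted p under 0.05). Over the 12618 genes tested, 0.166% passed as higher and 0.0159% as lower. At an unadjusted limma p under 0.05, 5 of the 10 were higher (Cd14, Tlr2, Nod1, Nod2 and Zbp1) and none was lower, where 5.96% of all genes were higher and 4.41% lower. The IL-36β and untreated libraries did not overlap in 4 of the 10 (Cd14, Tlr2, Nod1 and Zbp1), all higher with IL-36β, against 8.95% of all genes higher and 7.24% lower in this way. Log2 fold changes (IL-36β over untreated, on the log2(FPKM + 0.5) scale) were above 0 in 9 of the 10 genes and in 50.5% of all genes. Their median was 0.30 over the 10 genes and 0.0023 over all genes. Of the 9 genes above 0, Tlr3 lay at 0.0037, and its sign turned under other scalings. On whole reads recovered from the FPKM, edgeR called 1 of the 10 higher, Cd14, against 0.262% of all genes. DESeq2 called 2 of the 10 higher, Cd14 and Tlr2, against 1.29% of all genes higher and 0.808% lower.

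**Figure D1:**
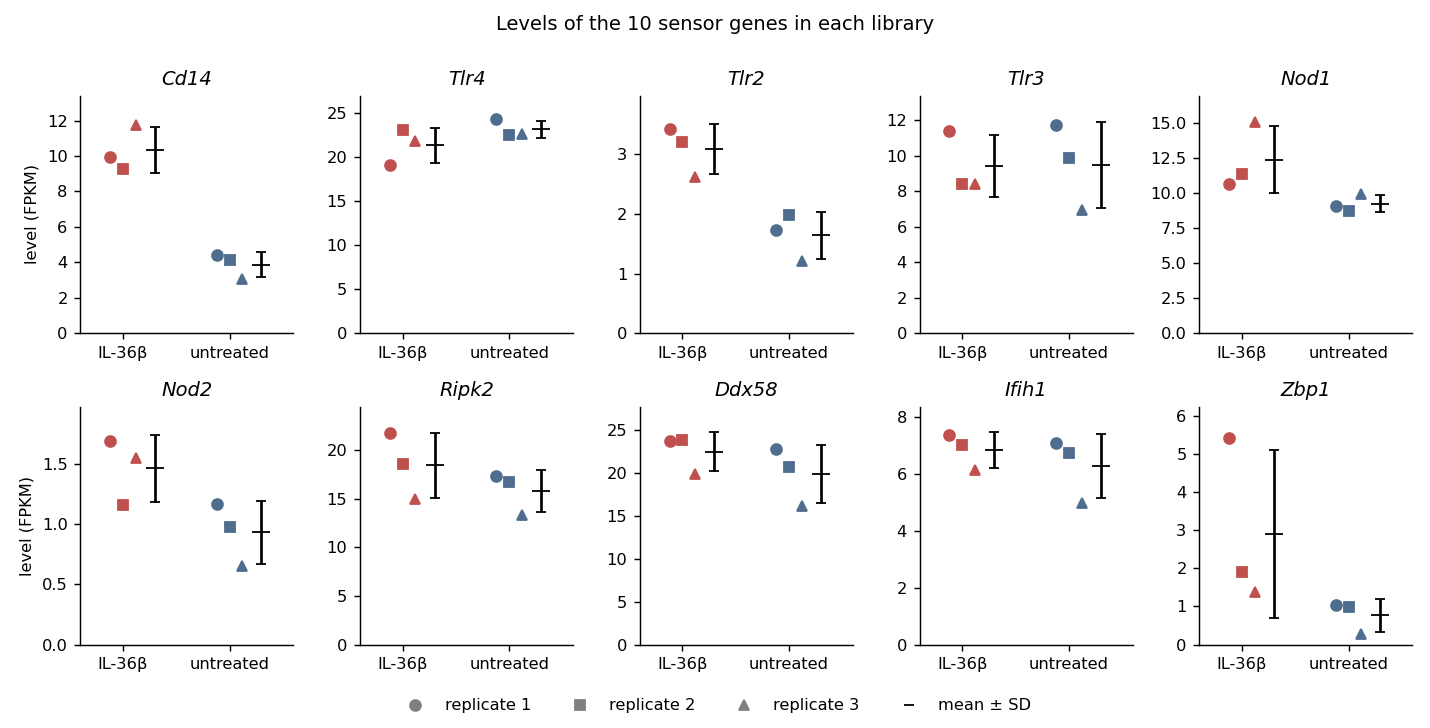
Level (FPKM, linear axes from 0) of each of the 10 genes in every library. Red points are the 3 IL-36β libraries and blue points the 3 untreated libraries, marker shapes are replicate numbers, and bars are mean ± SD. The Cd14 panel shows 9.25 to 11.8 FPKM with IL-36β and 3.06 to 4.43 FPKM in untreated cells, while the Tlr4 panel shows overlapping groups.

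Cd14 encodes the surface protein that hands bacterial lipopolysaccharide to the TLR4 receptor complex, and it also serves TLR2 and TLR3. The gene lies on chromosome 18, from 36725074 to 36726736 on the minus strand (GRCm38). Its levels were 9.96, 9.25 and 11.8 FPKM in IL-36β replicates 1 to 3, and 4.43, 4.15 and 3.06 FPKM in untreated replicates 1 to 3. The lowest IL-36β library thus stood above the highest untreated library. Cd14 averaged 10.3 ± 1.29 FPKM with IL-36β and 3.88 ± 0.721 FPKM without (SD, n = 3 each), from 818 reads with IL-36β and 319 reads without. It rose 2.48-fold (95% interval 1.94 to 3.19; limma adjusted p = 0.0322). The call was lost whenever any 1 library was left out. Without IL-36β replicate 1, 2 or 3 the limma adjusted p was 0.138, 0.0981 and 0.161, and without untreated replicate 1, 2 or 3 it was 0.0967, 0.135 and 0.0665. In those 6 fits the log2 fold change stayed between 1.17 and 1.40. The call was also lost with no filter on low values (limma adjusted p = 0.127) and on a TPM scale (limma adjusted p = 0.0524). On the recovered reads DESeq2 gave an adjusted p of 1.19e-07 and edgeR one of 0.0243.

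The 14 microglia and macrophage markers were at or near 0 in all libraries. Their lower sum with IL-36β rested on Lyz2, at 0.441, 0.462 and 0.0836 FPKM with IL-36β and 0.749, 0.788 and 0.692 FPKM in untreated cells. The other 13 summed to 0.305, 0.356 and 0.116 FPKM with IL-36β and 0.168, 0.281 and 0.142 FPKM in untreated cells, which overlap. The part of such cells in the Cd14 result was not tested.

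Tlr4, the lipopolysaccharide receptor itself, is on chromosome 4 (66827584 to 66930284, plus strand). It stood at 19.1, 23.0 and 21.8 FPKM in IL-36β libraries and 24.2, 22.5 and 22.6 FPKM in untreated libraries. The groups overlapped, and the IL-36β replicate with the least Tlr4 was replicate 1. The fold was 0.92 with an interval of 0.78 to 1.08 (limma adjusted p = 0.695), so a change as large as that of Cd14 lies outside the interval. Ly96, which encodes the MD-2 subunit that binds lipopolysaccharide on TLR4, averaged 14.5 ± 2.10 FPKM with IL-36β and 13.6 ± 1.49 FPKM without (SD, n = 3 each), a fold of 1.06 with an interval of 0.86 to 1.31 (limma adjusted p = 0.839).

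The ratio of Cd14 to Tlr4, taken per length within each library, put this side by side. It was 0.522, 0.402 and 0.540 in IL-36β libraries and 0.183, 0.184 and 0.135 in untreated libraries. The ratio of Cd14 to Ly96 was 0.714, 0.550 and 0.925 with IL-36β and 0.295, 0.344 and 0.223 without. In both ratios the groups did not overlap. As Cd14 was itself the gene that passed, these ratios repeat its difference and add no separate test.

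Tlr2 encodes the receptor for bacterial lipoproteins, which pairs with TLR1 or TLR6. It lies on chromosome 3 (83836272 to 83841767, minus strand). Levels were 3.42, 3.21 and 2.61 FPKM in IL-36β libraries and 1.74, 1.98 and 1.21 FPKM in untreated libraries, without overlap. Its means were 3.08 ± 0.421 FPKM with IL-36β and 1.64 ± 0.395 FPKM in untreated cells (SD, n = 3 each), from 462 reads with IL-36β and 262 reads without. The 1.68-fold difference (interval 1.27 to 2.24) did not pass the threshold in limma (adjusted p = 0.208) or edgeR (adjusted p = 0.197). DESeq2 on the recovered reads called it (adjusted p = 0.0380). Of its partners, Tlr6 averaged 0.366 ± 0.0427 FPKM with IL-36β and 0.528 ± 0.0484 FPKM in untreated cells (SD, n = 3 each) and was too low to be tested, and Tlr1 had 2 reads with IL-36β and 0 reads in untreated libraries.

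RefSeq's promoter windows (250 bases before to 50 after a start site) were searched for 6 members, not including Cd14. Matches to the NF-κB consensus motif were present for Tlr2 and Tlr3 among these. Such a match was in 8.46% of all 32851 windows. The stretches of Tlr2 are shown because its window held the most, 3 matches, of which 2 overlap and are printed as 1 run. Capitals mark the matched bases. The first stretch is chr3:83841762-83841791 and the second chr3:83841597-83841626 (GRCm38.p6, minus strand, written 5′ to 3′). The first match lies outside the GENCODE M21 gene, on its 5′ side, and the second lies in an exon. Counted from the RefSeq start as base 1, the matches run from -173 to -163 and from -8 to 2.
Tlr2 first stretch: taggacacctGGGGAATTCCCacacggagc
Tlr2 second stretch: ccctgacctgGGGACATCCCcttccctcac
A match describes these letters only, and binding was not measured here. The interferon-activated motif GAS, TTCNNNGAA, was in 8.30% of all windows and in 1 of the members' windows, one of the 2 of Nod1.

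Tlr3, the endosomal receptor for double-stranded RNA, lies on chromosome 8 (45395665 to 45411080, minus strand). It was at 11.4, 8.41 and 8.43 FPKM with IL-36β and at 11.7, 9.87 and 6.92 FPKM in untreated cells. The groups overlapped, and replicate 1 was the highest in both groups. The fold was 1.00 with an interval of 0.72 to 1.39 (limma adjusted p = 0.997), and the sign of this near-zero difference turned under other scalings. The stretch chr8:45410572-45410601 (minus strand) holds the single NF-κB consensus match of its window, from -211 to -202, in an exon of a gene model that begins farther upstream than the RefSeq start. It is printed to be read beside those of Tlr2, since these are the members searched that held such a match.
Tlr3 stretch: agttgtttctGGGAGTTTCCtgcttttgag

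**Figure D2:**
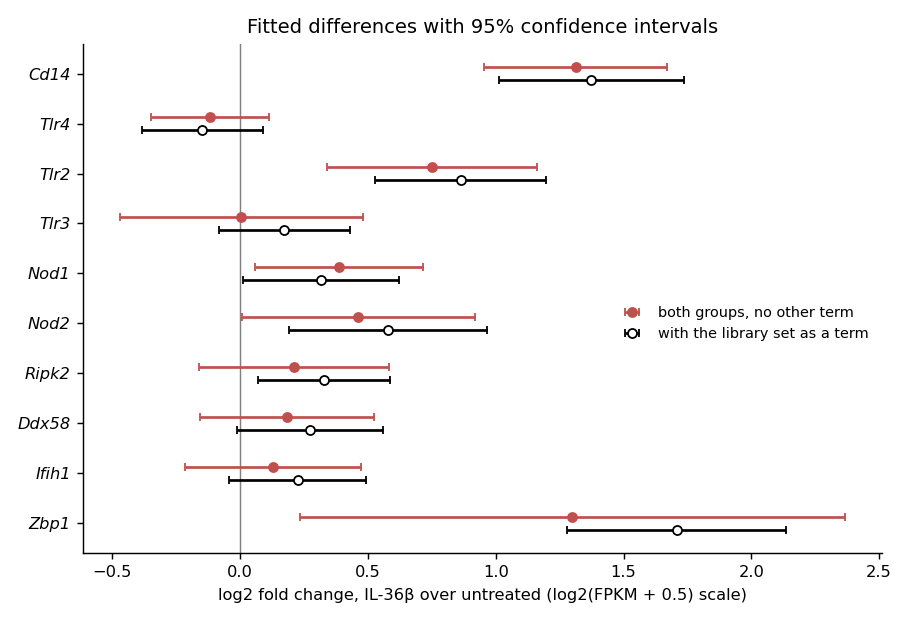
Log2 fold change of IL-36β over untreated on the log2(FPKM + 0.5) scale for each gene, with 95% confidence intervals. Filled red points are the fit with no other term and open black points the fit with the library set as a term. Cd14 lies at 1.31 and 1.37, and the interval of Zbp1 narrows in the second fit.

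Nod1 and Nod2 encode cytosolic receptors for fragments of bacterial peptidoglycan, and Ripk2 encodes the kinase through which both signal to NF-κB. Nod1 (chromosome 6, 54923949 to 54972612, minus strand) was at 10.7, 11.3 and 15.1 FPKM with IL-36β and at 9.06, 8.71 and 9.92 FPKM without. The groups did not overlap, with IL-36β replicate 3 the highest. Its fold of 1.31 had an interval of 1.04 to 1.64 and did not pass over all genes (limma adjusted p = 0.416).

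Nod2 (chromosome 8, 88647315 to 88688474, plus strand) had the lowest mean of the 10 with IL-36β. It was at 1.68, 1.15 and 1.55 FPKM with IL-36β, against 1.17, 0.975 and 0.649 FPKM in untreated cells. In IL-36β replicate 3 Zbp1 was lower than Nod2. IL-36β replicate 2 lay just under untreated replicate 1. The fold was 1.38 with an interval of 1.01 to 1.89 (limma adjusted p = 0.477), from 367 reads with IL-36β and 244 reads without.

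Ripk2 (chromosome 4, 16122733 to 16163647, minus strand) was at 21.7, 18.6 and 14.9 FPKM with IL-36β and at 17.3, 16.7 and 13.3 FPKM in untreated cells. The groups overlapped, and the replicate with the least Ripk2 was replicate 3 in each. The fold was 1.16 with an interval of 0.89 to 1.5 (limma adjusted p = 0.668). The ratio of Nod2 to Nod1 was 0.121 ± 0.0322 with IL-36β and 0.102 ± 0.0329 without (SD, n = 3 each), so Nod1 was the more abundant transcript per length in every library.

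Ddx58 encodes RIG-I and Ifih1 encodes MDA5, helicases that bind viral RNA in the cytosol and signal through the mitochondrial adaptor MAVS. Ddx58 (chromosome 4, 40203773 to 40239828, minus strand) was at 23.7, 23.9 and 19.8 FPKM with IL-36β and at 22.8, 20.7 and 16.1 FPKM without. Ifih1 (chromosome 2, 62595798 to 62646255, minus strand) was at 7.38, 7.01 and 6.14 FPKM with IL-36β and at 7.09, 6.75 and 4.99 FPKM without. In both genes the groups overlapped and untreated replicate 3 was the lowest library. Folds were 1.14 for Ddx58 (interval 0.90 to 1.44; limma adjusted p = 0.681) and 1.09 for Ifih1 (0.86 to 1.39; limma adjusted p = 0.783). Without untreated replicate 3, the log2 fold change of Ifih1 was -0.018. The level of Ifih1 relative to Ddx58 was almost the same in all libraries, at 0.305 ± 0.00974 with IL-36β and 0.316 ± 0.0092 in untreated cells (SD, n = 3 each).

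Both helicase genes held, on one strand or the other, the core of the interferon-stimulated response element (GAAA, any 2 bases, GAAA) in their RefSeq window. This motif was in 3.44% of the 32851 windows and in none of the other members' windows searched (Tlr2, Tlr3, Nod1 and Nod2). The stretches are shown because no other member searched held the motif. Binding was not measured, and a link between the motif and the levels of these genes was not tested. In Ddx58 the match is on the opposite strand, from base 3 to 12 after the start, in an exon, and the window is printed from 250 bases before the start, chr4:40239806-40240075 (GRCm38.p6, minus strand). In Ifih1 it runs from base 33 to 42 in an exon, and the stretch is chr2:62646206-62646233 (minus strand). Capitals mark the match.
Ddx58 window: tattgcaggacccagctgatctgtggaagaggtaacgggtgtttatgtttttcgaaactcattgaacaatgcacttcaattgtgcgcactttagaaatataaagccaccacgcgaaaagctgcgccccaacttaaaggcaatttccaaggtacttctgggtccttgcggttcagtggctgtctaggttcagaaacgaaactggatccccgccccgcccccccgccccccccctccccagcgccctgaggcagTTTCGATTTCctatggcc
Ifih1 stretch: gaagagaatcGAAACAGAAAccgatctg

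**Figure D3:**
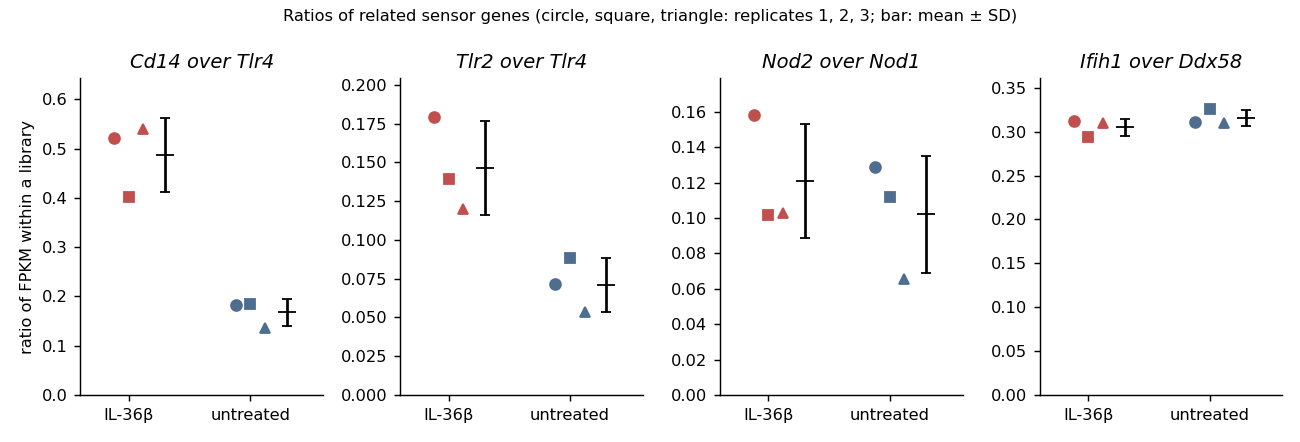
Ratio of FPKM of related genes within each library, on linear axes from 0. Red points are IL-36β and blue points untreated libraries, shapes are replicates, and bars are mean ± SD. Cd14 over Tlr4 does not overlap between groups (0.402 to 0.540 with IL-36β and 0.135 to 0.184 in untreated libraries), while Ifih1 over Ddx58 lies between 0.294 and 0.326 in all 6 libraries.

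Zbp1 encodes a cytosolic sensor of left-handed Z-form nucleic acids that can start RIPK3-dependent cell death. It lies on chromosome 2 (173206612 to 173218923, minus strand). Its levels were 5.42, 1.90 and 1.39 FPKM with IL-36β, from 297, 110 and 89 reads, and 1.05, 0.993 and 0.276 FPKM in untreated cells, from 60, 71 and 15 reads. Every IL-36β library was above every untreated one, but IL-36β replicate 1 stood far above replicates 2 and 3, and untreated replicate 3 far under the other untreated libraries. The fold was 2.46 with a wide interval of 1.18 to 5.16, and it did not pass (limma adjusted p = 0.404). Without IL-36β replicate 1 the log2 fold change was 0.81, and without untreated replicate 3 it was 0.98, against 1.30 with all libraries. DESeq2 and edgeR on the reads did not call it either (adjusted p = 0.292 and 0.297).

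The libraries carry letters, and those lettered A and B (IL-36β 1, untreated 1 and 2) differed from those lettered D and E (IL-36β 2 and 3, untreated 3). The labels do not say what a letter marks, the split was chosen from these same data, and p-values that use it may overstate the evidence. Levels in D and E were lower than in A and B in the fit for 8 of the 10 genes (all but Tlr4 and Nod1), with a median log2 difference of -0.32, and for 47.9% of all genes, with a median of 0.011. For Zbp1 the log2 difference between the sets was -1.22 and passed (limma adjusted p = 0.0278), as did 1.24% of all genes in that direction and 0.507% in the other. For Tlr3 it was -0.51 (limma adjusted p = 0.0798).

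With the library set as a term, 2 of the 10 genes were called higher, Cd14 and Zbp1, and 0.674% of all genes were. In this model Cd14 was 2.59-fold higher (interval 2.02 to 3.33; limma adjusted p = 0.0164) and Zbp1 3.27-fold higher (2.43 to 4.40; limma adjusted p = 0.0147). Tlr2 came to 1.82-fold (1.44 to 2.29; limma adjusted p = 0.0572). The difference in Cd14 was 2.19-fold within A and B and 3.07-fold within D and E. For Zbp1 it was 3.90-fold within A and B and 2.74-fold within D and E, and for Tlr2 1.66-fold within A and B and 1.99-fold within D and E. These within-set values carry no test. All genes but Tlr4 were above 0 within both sets, 9 of 10, against 31.7% of all genes tested.

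**Figure D4:**
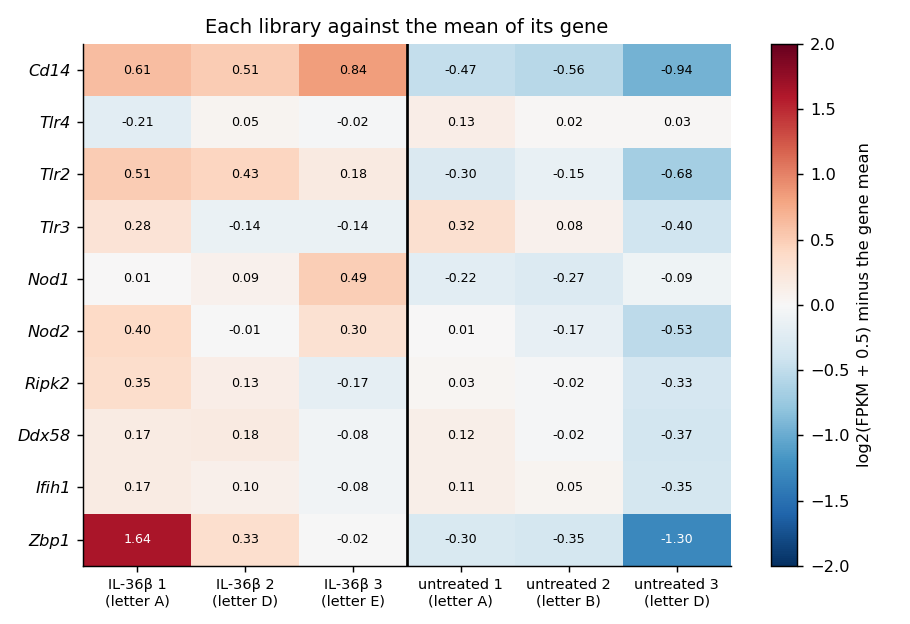
Each cell is the log2(FPKM + 0.5) of a gene in a library minus the mean of that gene over the 6 libraries; red is above and blue below that mean. IL-36β libraries are left of the black line and untreated libraries right of it, with the library letter under each. The untreated replicate 3 column is the bluest, and the IL-36β replicate 1 cell of Zbp1 the reddest.

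Untreated replicate 3 was the lowest of its group in 8 of the 10 genes, where 37.2% of all genes tested had their lowest untreated value there. IL-36β replicate 1 was the highest of its group in 6 of the 10 (Tlr2, Tlr3, Nod2, Ripk2, Ifih1 and Zbp1), against 31.3% of all genes.

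Ordered by level with IL-36β, the genes ran from Ddx58 (22.5 ± 2.27 FPKM), Tlr4 (21.3 ± 2.01) and Ripk2 (18.4 ± 3.38) over Nod1 (12.4 ± 2.37), Cd14 (10.3 ± 1.29), Tlr3 (9.42 ± 1.73) and Ifih1 (6.84 ± 0.635) to Tlr2 (3.08 ± 0.421), Zbp1 (2.90 ± 2.20) and Nod2 (1.46 ± 0.276; mean ± SD, n = 3 each). In untreated cells the order was Tlr4 (23.1 ± 0.965), Ddx58 (19.9 ± 3.41), Ripk2 (15.8 ± 2.12), Tlr3 (9.50 ± 2.42), Nod1 (9.23 ± 0.626), Ifih1 (6.27 ± 1.13), Cd14 (3.88 ± 0.721), Tlr2 (1.64 ± 0.395), Nod2 (0.930 ± 0.262) and Zbp1 (0.772 ± 0.430). Cd14 ranked above Tlr3 and Ifih1 by its mean with IL-36β and under both in untreated cells. With IL-36β, the gaps between neighbours exceeded the larger of their SDs for Ripk2 and Nod1, for Tlr3 and Ifih1 and for Ifih1 and Tlr2, and no others. In untreated cells the gap was within the larger SD for Tlr4 and Ddx58, for Tlr3 and Nod1 and for Nod2 and Zbp1, and exceeded it for the others. By mean level over all 6 libraries, Tlr4 stood above 81.7% of the genes tested and Nod2 above 14.7%.

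Companion genes of the same pathways were taken from 6 lists, described in turn, and none of their tested members passed the threshold in limma. Of the 9 other Toll-like receptors 1 was tested, Tlr13, a receptor for bacterial ribosomal RNA in mice, at 1.93 ± 0.474 FPKM with IL-36β and 1.55 ± 0.759 FPKM without (SD, n = 3 each). Tlr7, Tlr8, Tlr9 and Tlr12 had no read in any library. Of 15 tested co-receptors and adaptors, 3 had an unadjusted limma p under 0.05, all higher (Cnpy3, Irak2 and Irak3), where 5.96% of all genes were higher and 4.41% lower. Irak3, a brake on IL-1 and Toll-like receptor signalling, was at 19.2, 15.3 and 13.3 FPKM with IL-36β and at 7.52, 8.27 and 7.15 FPKM without, which do not overlap. Its 2.0-fold difference (interval 1.59 to 2.52) missed the threshold in limma (adjusted p = 0.0694) and was called by edgeR (adjusted p = 0.0301), by DESeq2 (adjusted p = 5.92e-07) and with the library set as a term (limma adjusted p = 0.0147). The most abundant genes of this list were Hsp90b1, a chaperone of Toll-like receptors, at 108 ± 12.8 FPKM with IL-36β and 106 ± 7.63 FPKM without, and Tollip, an adaptor that dampens signalling, at 32.5 ± 1.88 FPKM with IL-36β and 35.4 ± 1.04 FPKM without (SD, n = 3 each). Myd88 averaged 9.10 ± 0.611 FPKM with IL-36β and 8.48 ± 0.819 FPKM without, a log2 fold change of 0.10 (limma adjusted p = 0.768).

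In the NOD and NLR list, 9 of 16 genes were tested and 3 had an unadjusted limma p under 0.05, all higher (Casp1, Birc2 and Birc3), against 5.96% of all genes; edgeR and DESeq2 called none. Casp1, the protease of inflammasomes, was 1.51-fold higher in the fit (interval 1.17 to 1.95; limma adjusted p = 0.264), at 2.14 ± 0.271 FPKM with IL-36β and 1.25 ± 0.242 FPKM without (SD, n = 3 each). The inflammasome sensor Nlrp3 and the adaptor Pycard were too low to be tested, with means under the filter in both groups. Nlrp3 averaged 0.173 ± 0.101 FPKM with IL-36β and 0.106 ± 0.0789 FPKM without, and Pycard 0.131 ± 0.0292 FPKM with IL-36β and 0.107 ± 0.0116 FPKM without (SD, n = 3 each). The most abundant were Xiap, a ubiquitin ligase that acts on RIPK2, at 13.2 ± 1.70 FPKM with IL-36β and 13.5 ± 0.449 FPKM without, and Erbin, a NOD2-binding protein, at 11.6 ± 1.40 FPKM with IL-36β and 12.6 ± 1.30 FPKM without (SD, n = 3 each).

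All 12 genes of the RIG-I-like receptor list were tested, and 4 had an unadjusted limma p under 0.05, all higher (Rnf135, Rnf125, Ikbke and Irf3), against 5.96% of all genes. Ikbke encodes a kinase that activates interferon regulatory factors. It was at 4.74, 2.78 and 2.26 FPKM with IL-36β and at 1.07, 0.892 and 0.440 FPKM without, again with no overlap. The 2.85-fold difference (interval 1.79 to 4.53) missed the threshold in limma (adjusted p = 0.131) and edgeR (adjusted p = 0.0629), whereas DESeq2 called it (adjusted p = 2.39e-07). With the library set as a term it was called too, at 3.37-fold (limma adjusted p = 0.00593). Mavs, the adaptor of both helicases, was at 15.0 ± 0.981 FPKM with IL-36β and 15.1 ± 0.597 FPKM without (SD, n = 3 each; limma adjusted p = 0.962). The most abundant were Irf3, a transcription factor of the interferon response, at 19.9 ± 1.91 FPKM with IL-36β and 15.3 ± 2.52 FPKM without, and Trim25, a ubiquitin ligase of this pathway, at 15.1 ± 0.551 FPKM with IL-36β and 15.6 ± 2.45 FPKM without (SD, n = 3 each).

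Of 19 tested cytosolic DNA and double-stranded RNA sensors and effectors, 1 had an unadjusted limma p under 0.05 (Ddx41, higher), a share near the 5.96% of all genes, and edgeR and DESeq2 called none. With the library set as a term, 2 interferon-stimulated genes of the list were called higher, Oasl2 at 1.61-fold (limma adjusted p = 0.0498) and Ifit3 at 1.86-fold (limma adjusted p = 0.0478), where 0.674% of all genes were. Across the list the median log2 difference of the D and E libraries from the A and B libraries was -0.37. Its most abundant genes were Mlkl, the executioner of necroptosis, at 32.2 ± 2.55 FPKM with IL-36β and 29.8 ± 3.90 FPKM without, and Ifit3, at 21.7 ± 13.5 FPKM with IL-36β and 15.5 ± 7.47 FPKM without (SD, n = 3 each). Ripk3, the kinase that binds ZBP1, was at 7.80 ± 1.5 FPKM with IL-36β and 7.31 ± 0.518 FPKM without (SD, n = 3 each; limma adjusted p = 0.880). Of 12 lectin and scavenger receptors 3 were tested and 1, Scarf1, had an unadjusted limma p under 0.05 and was higher, against 5.96% of all genes. Scarf1, an endothelial scavenger receptor, was at 79.3 ± 8.57 FPKM with IL-36β and 64.8 ± 3.25 FPKM without, and Stab1, another scavenger receptor, at 35.1 ± 14.3 FPKM with IL-36β and 27.1 ± 2.75 FPKM without (SD, n = 3 each). The myeloid receptors Clec4n, Marco and Cd209a had no read in any library.

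**Figure D5:**
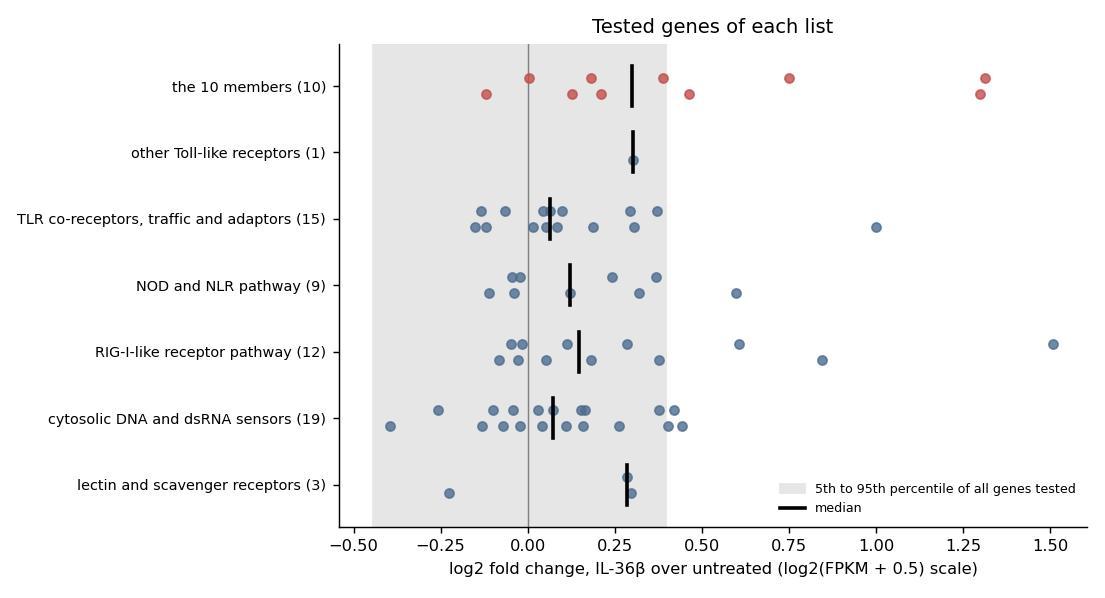
Log2 fold change of IL-36β over untreated for every tested gene of the 10 members (red) and of 6 companion lists (blue), with the number tested in brackets; black bars are medians and the grey band spans the 5th to 95th percentile of all genes tested (-0.44 to 0.40). Points right of the band include Cd14, Zbp1 and Tlr2 among the members, Irak3 among the adaptors and Ikbke in the RIG-I-like receptor list.

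The authors' deposited table of 660 genes lists 2 of the 10 members, Cd14 and Zbp1, both higher with IL-36β. In the authors' deposited table Cd14 has a p of 0.0066 and Zbp1 one of 0.0172, each before adjustment, and the adjusted p is 0.999 for every gene listed. The authors' deposited table also holds columns of 4 libraries not used here, and for most of its genes the group means there differ by over 1% from those of the 3 labelled libraries (594 of 660 with IL-36β, 573 in untreated cells). Whether its p-values rest on the same libraries as those of limma above is not stated, so the values are not directly comparable. The authors' deposited table of gene ontology terms, made from genes higher with IL-36β, has Cd14 in 80 terms. The one of smallest p, responses to molecules of bacterial origin, holds 34 of 365 listed genes (authors' enrichment adjusted p = 1.09e-10). In the authors' comparison the unadjusted p ran up to 0.04995 and no gene passed after adjustment. The term is thus no separate support for Cd14.

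Among genes that overlap the members, an antisense gene within Tlr3 (Gm45542) and a miRNA gene within Ripk2 (Gm22690) had 0 reads in all libraries. The other 8 members overlapped no gene of the table.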

How the data were processed

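Messenger RNA of 6 libraries of mouse brain microvascular endothelial cells, 3 exposed to IL-36β and 3 untreated, was sequenced; per the labels' protocols, a stranded poly(A) kit and an Illumina instrument were used. GRCm38 is the build in the submitters' processing notes, which also list featureCounts 1.50-p3, HISAT2 2.05, fastp, DESeq2 1.38.3 and StringTie, without roles. How the counting treated strand is not stated there.

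FPKM (fragments per kilobase of gene, scaled to depth) were deposited by the authors for 54532 genes. A second deposited table holds counts, normalized counts (a signal scale of counts over a size factor), log2 fold changes and p-values for 660 genes. Another deposited table gives p-values of gene ontology terms. In the table of 660 genes, 8 columns belong to 4 libraries without a matching label and were not used. For 594 (IL-36β) and 573 (untreated) of its genes the authors' group mean is over 1% away from that of the 3 labelled libraries.

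Libraries were grouped by title, and columns were matched by library name. FPKM times gene length gave whole reads, after 1 divisor per library, in 100.0% of values (within 0.01), equal to the deposited counts in all 660 shared genes. The divisor times the authors' size factor was constant, so the deposited FPKM are scaled by size factors and not by library totals.

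Values were taken as log2(FPKM + 0.5) and tested two-sided with limma 3.58.1 under R 4.3.3, its prior variance following the mean level. Genes entered where 3 or more of the 6 libraries reached 0.5 FPKM, which left 12618. The threshold was a Benjamini-Hochberg adjusted p under 0.05 over all genes tested. Fold changes are on this log2 scale, which understates changes of low genes. The script was tested on simulated reads that held no difference between library sets, so that test does not cover such a difference. Alternatives were other pseudocounts, filters and scalings, DESeq2 1.42.0 and edgeR 4.0.16 on the recovered reads, the library set as a term, replicate blocks, and leaving out each library.

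The 10 genes were given by name. The members, companion lists, markers and tests were chosen with earlier results of these data known. All 10 members are described, and of each companion list the genes past a threshold or the most abundant ones; further list genes named for their reads or differences were chosen after their values were seen. Promoter windows are RefSeq's on GRCm38.p6, and gene models for position were GENCODE M21 on GRCm38. Windows of 6 of the 10 genes were searched. Windows on chromosome 18, where Cd14 lies, were left out, so its promoter was not searched. Motifs were searched on both strands.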

Additional observations from a re-analysis of the deposited data

How the results depend on the processing

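Of 180 member values recomputed under 18 alternatives, 160 kept their direction and side of the threshold, 3 gained the call, 9 lost it (all Cd14) and 8 turned in sign, none of these past the threshold. Tlr3 turned to a log2 fold change of -0.013 (quantile), -0.0045 (median ratio), -0.079 (TPM), -0.023 (DESeq2) and -0.019 (edgeR), and its values without 1 library ran from -0.20 to 0.16; those of Ifih1 ran from -0.018 to 0.22. The 23 genes called by limma over all genes became 15 with TPM rescaling, 102 with the library set as a term, 260 with DESeq2 (160 higher, 100 lower), 37 with edgeR and 2 to 8 without 1 library. The 1 member called became 2 with DESeq2 (Cd14 and Tlr2) and 2 with the library set, and 0 with TPM rescaling (limma adjusted p of Cd14 0.0524; 3 members at an unadjusted p under 0.05). It was 0 without each library in turn (range 0 to 0, with 3 to 5 members at an unadjusted p under 0.05). Without a filter on low values limma called 0 of 23998 genes and 0 members (1751 genes and 4 members at an unadjusted p under 0.05; limma adjusted p of Cd14 0.127), with more genes tested. The causes of these changes were not tested.

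The labels do not say whether the title numbers mark pairs. Deviations of same-numbered libraries correlated at 0.21, -0.14 and 0.21, and 2 of 6 libraries correlated best with their own number. With 3 libraries per group, these values cannot show whether the libraries were paired. With the replicate block by title number 13 genes and 0 members passed (4 members at an unadjusted p under 0.05; limma adjusted p of Cd14 0.088). With the replicate block by library letter, where only A and D hold both groups (correlations 0.21 and 0.28), 78 genes and 2 members passed, Cd14 and Zbp1 (limma adjusted p = 0.0223 for each).

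At this depth the members with fewest reads were Zbp1, with 15 to 297 reads per library, and Nod2, with 50 to 141.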
